A study of Mus musculus with 6 samples.

Results

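The collagen genes of mouse liver were taken from a bulk RNA sequencing count table as all rows typed protein-coding whose name is Col, a number, the letter a and a number. This rule found 44 genes among the 54532 in the table. It uses names only, not measured values, but the family and its classes were chosen with earlier results of these data known. Counts of its members below are therefore descriptions and not independent evidence. The 44 genes were sorted into 11 fibrillar, 6 basement membrane (type IV) and 27 other collagens from textbook classes. The samples were 3 liver libraries labelled KO, from male mice lacking Trem2 (Trem2-/-), and 3 labelled WT, from male wild-type littermates, whose genotype the labels give as control. Both groups were put on a high-fat diet at 8 weeks of age and kept on it for 8 weeks, so that no library comes from a mouse on another diet. Trem2 encodes a surface receptor of macrophages that binds lipids, and the single comparison asks what its absence does to liver RNA under this diet. The sources used here do not give the strain, the deleted exons or whether each library is a separate mouse, so p-values measure the spread between these samples only.

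Collagens are extracellular proteins built of chains wound around each other along repeats of glycine and further residues, rich in proline. Fibrillar collagens form the banded fibres of scar and connective tissue, type IV forms the sheet of basement membranes, and the remaining types decorate fibrils, form fine filaments or anchor cells. In liver, hepatic stellate cells that turn into myofibroblasts, and portal fibroblasts, are the main source of types I and III in fibrosis. Endothelial cells contribute type IV, and hepatocytes are a known source of type XVIII.

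The libraries held 11591021 to 19653758 counts (KO-labelled) and 13866345 to 20399361 counts (WT-labelled). Collagens together took 0.128% to 0.146% of the counts of the KO-labelled libraries and 0.0929% to 0.122% of the WT-labelled ones. Trem2 did not separate the labels. It had 9, 6 and 5 counts in KO replicates 4, 5 and 6, and 7, 26 and 26 counts in WT replicates 1, 2 and 3 (edgeR adjusted p = 0.633). At 0.436 CPM (counts per 1e+06 counts of scaled library size), WT replicate 1 lay inside the KO range of 0.278 to 0.817 CPM, so every direction below is between libraries as labelled. The mitochondrial genome gave 28.0%, 9.08% and 19.8% of counts in KO replicates 4, 5 and 6, and 8.16%, 12.7% and 10.2% in WT replicates 1, 2 and 3, and the part of this difference in the collagen values was not tested beyond one alternative that scaled without those genes. The labelled tissue held its markers. Albumin (Alb) stood at 50471, 55593 and 53336 CPM in the KO-labelled and 67229, 47854 and 68041 CPM in the WT-labelled libraries.

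Most collagen genes with enough reads stood higher in the KO-labelled livers, and none passed the threshold over all genes. Of the 44, 26 passed the filter on low counts, and 24 of those were fitted higher, with a median log2 fold change (KO-labelled over WT-labelled) of 0.95. Over all 13693 genes tested, 49.1% were fitted higher and the median was −0.01. The fibrillar genes Col1a1, Col3a1 and Col1a2 had fitted folds of 5.21, 4.84 and 3.83, and Col20a1 and Col18a1 were the only tested collagens fitted lower. In bulk tissue, more cells of a type and more RNA per cell cannot be told apart.

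With edgeR's quasi-likelihood test and Benjamini-Hochberg adjustment, 0 of the 26 collagens had an adjusted p under 0.05, where 0.0146% of all genes did (2 genes). Before adjustment, 13 collagens were higher with p under 0.05, against 5.37% of all genes, and 0 were lower, against 3.21% of all genes. In 11 collagens all 3 KO-labelled values lay above all 3 WT-labelled ones, as in 8.12% of all genes, and in 0 they lay below, as in 5.73% of all genes. DESeq2 called Col3a1, Col1a1 and Col1a2 as higher (3 of 26, against 0.818% of all genes). EdgeR without a count filter called the same 3 genes (3 of 43, against 0.158% of all genes called higher). Limma-voom and limma on log2 FPKM called 0, and limma-voom with sample quality weights called 14 higher (against 15.1% of all genes called higher).

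The filter can take in a low gene through the group in which it is high, so the count was also made on genes chosen by their mean over all 6 libraries. Of the 21 collagens with a mean of at least 1 CPM, 19 were fitted higher, 11 had an unadjusted p under 0.05 as higher and 9 had groups that did not overlap. Among all 12538 genes with such a mean, the shares were 48.1%, 5.27% and 7.90%. The number of collagens higher at an unadjusted p under 0.05 depended on single libraries. It was 8 of 28 without WT replicate 1, 6 of 27 without WT replicate 3 and 6 of 28 without KO replicate 5, where 3.603%, 3.13% and 8.88% of all genes were higher. It was 9 of 28 without KO replicate 4, 14 of 30 without KO replicate 6 and 18 of 28 without WT replicate 2, where 2.93%, 4.002% and 8.504% of all genes were higher. Without both WT replicate 1 and KO replicate 4 it was 5 of 28, against 2.07% of all genes.

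**Figure D1:**
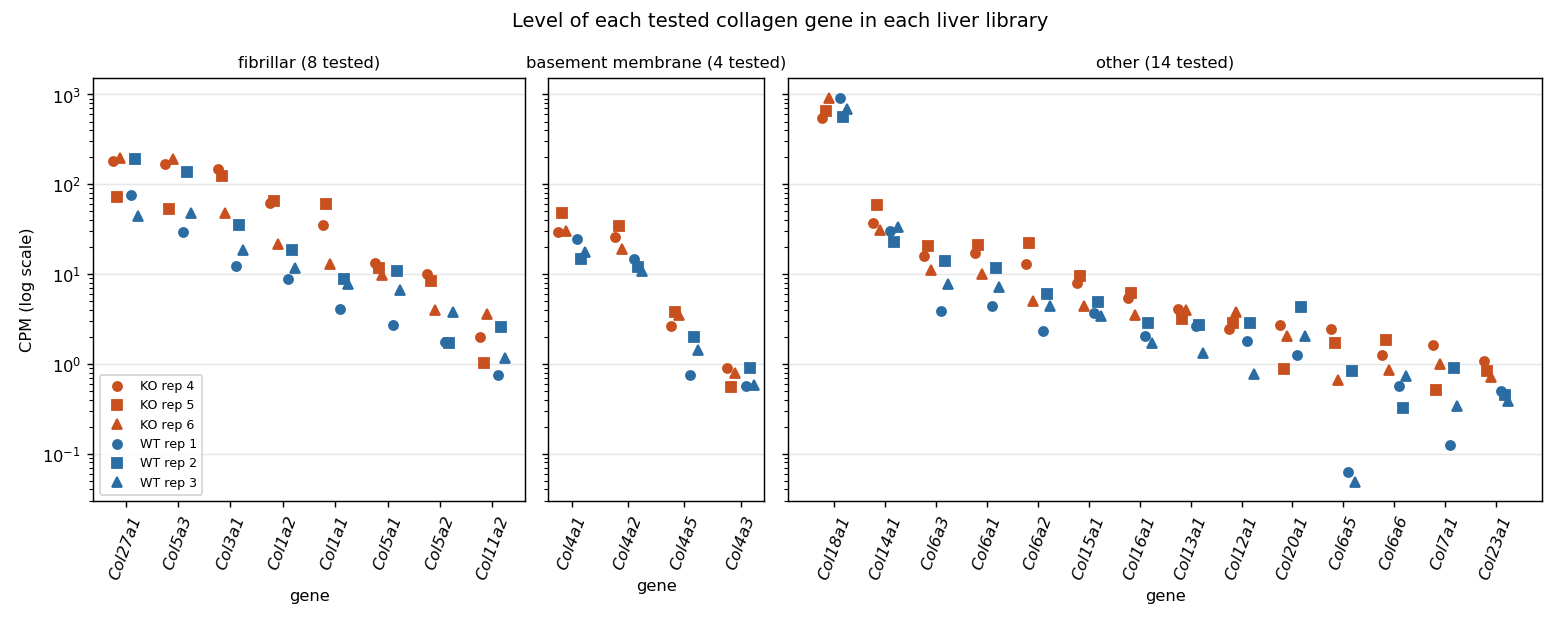
Level in CPM (log scale) of the 26 tested collagen genes, by class, with 1 point per library (KO-labelled in orange on the left of each gene, WT-labelled in blue on the right; symbols mark replicates). Col3a1, Col1a2 and Col1a1 have all 3 KO-labelled points above the WT-labelled ones, while Col27a1 and Col5a3 mix them.

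Types I and III, the fibres of scar tissue, had the largest fitted folds among the better measured members. Col1a1 and Col1a2 encode the chains of type I, and Col3a1 encodes type III, which forms mixed fibrils with type I. Col3a1 (chromosome 1, 45311538 to 45349706, mm10) stood at 147, 123 and 48.5 CPM in KO replicates 4, 5 and 6, and at 12.2, 34.8 and 18.8 CPM in WT replicates 1, 2 and 3. Col1a1 (chromosome 11, 94936224 to 94953042) stood at 35.2, 60.7 and 12.8 CPM in the KO-labelled and 4.11, 8.90 and 7.83 CPM in the WT-labelled libraries. In both genes KO replicate 6 was far below the other KO-labelled libraries and just above the highest WT-labelled one.

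Col1a2 (chromosome 6, 4504814 to 4541544) had the same pattern, at 61.8, 65.6 and 21.4 CPM in the KO-labelled and 8.91, 18.4 and 11.6 CPM in the WT-labelled libraries. The group means of Col3a1 were 106 ± 51.4 CPM (KO-labelled) and 21.9 ± 11.6 CPM (WT-labelled; SD, n = 3 each), a log2 fold change of 2.28 (SE 0.51, edgeR adjusted p = 0.370). Col1a1 had a log2 fold change of 2.38 (SE 0.56, edgeR adjusted p = 0.383) and Col1a2 of 1.94 (SE 0.46, edgeR adjusted p = 0.391). Each of the 3 genes had p = 0.1 by exact permutation of the libraries (two-sided), the smallest value that 3 against 3 allow. DESeq2 gave adjusted p of 0.00282 for Col3a1, 0.00465 for Col1a1 and 0.00972 for Col1a2. Over the 17 alternatives the adjusted p of each of these genes ranged from that DESeq2 value up to 1.00. With 1 library left out, the log2 fold change of Col3a1 lay between 1.97 and 2.77, of Col1a1 between 1.78 and 2.78 and of Col1a2 between 1.68 and 2.30.

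The sequences before the transcription starts of Col1a2 and Col3a1 are shown because these genes stood high and low in nearly the same libraries. Each is 250 bases before to 50 bases after a RefSeq start (GRCm38.p6, + strand, 5′ to 3′). Col1a2 lies at chr6:4505368-4505667, whose start is 804 bases inside the gene's end in the count table, and Col3a1 at chr1:45311288-45311587. Capitals mark every match, on either strand, to a short motif found in many promoters. The CCAAT box was searched as CCAAT and in reverse as ATTGG. The GC box was searched as GGGCGG and in reverse as CCGCCC. The TATA box was searched as TATAAA and in reverse as TTTATA.
Col1a2: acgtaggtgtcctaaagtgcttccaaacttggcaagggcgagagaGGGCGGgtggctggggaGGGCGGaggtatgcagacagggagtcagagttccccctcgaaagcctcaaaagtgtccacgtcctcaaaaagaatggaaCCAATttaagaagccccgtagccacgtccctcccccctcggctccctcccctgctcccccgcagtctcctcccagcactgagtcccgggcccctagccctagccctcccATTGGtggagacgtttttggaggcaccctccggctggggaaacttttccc
Col3a1: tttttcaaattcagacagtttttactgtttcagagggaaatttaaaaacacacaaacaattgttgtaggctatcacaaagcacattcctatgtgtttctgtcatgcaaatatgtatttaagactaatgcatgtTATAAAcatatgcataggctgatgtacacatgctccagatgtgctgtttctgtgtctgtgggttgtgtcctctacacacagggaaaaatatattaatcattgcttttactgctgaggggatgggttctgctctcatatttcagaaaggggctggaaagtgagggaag
The Col1a2 window held 2 CCAAT and 2 GGGCGG matches and 0 of TATAAA, and the Col3a1 window held 1 TATAAA match and 0 of the others. RefSeq sequences were at hand for 35 of the 44 collagen genes, with 38 starts. GGGCGG occurred in 60.5% of these 38 windows and in 35.7% of the 32851 windows of all genes. CCAAT occurred in 34.2% and 37.4%, and TATAAA in 13.2% and 13.6%. These are letter matches only.

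Type V collagen, which starts and limits the growth of type I fibrils, was uneven between its chains. Col5a2 (chromosome 1, 45374321 to 45503282, beside Col3a1) stood at 9.90, 8.38 and 3.94 CPM in the KO-labelled and 1.74, 1.73 and 3.74 CPM in the WT-labelled libraries. Its groups were apart by a narrow margin, between KO replicate 6 and WT replicate 3 (log2 fold change 1.61, SE 0.47, edgeR adjusted p = 0.410). Col5a1 stood at 13.2, 11.8 and 9.79 CPM in the KO-labelled and 2.68, 10.8 and 6.66 CPM in the WT-labelled libraries. Its groups overlapped through WT replicate 2 (log2 fold change 0.79, SE 0.45, edgeR adjusted p = 0.647). With 1 library left out it lay between 0.41 (without WT replicate 1) and 1.29 (without WT replicate 2).

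Col27a1 and Col5a3, the fibrillar collagens with the highest mean FPKM over the 6 libraries, followed another order of libraries. Col27a1, a fibrillar collagen best known from cartilage (chromosome 4, 63214004 to 63334991), stood at 180, 72.0 and 196 CPM in KO replicates 4, 5 and 6, and at 76.0, 193 and 44.0 CPM in WT replicates 1, 2 and 3. Col5a3, a minor chain of type V (chromosome 9, 20770050 to 20815067), stood at 169, 52.5 and 189 CPM in the KO-labelled and 29.4, 137 and 48.1 CPM in the WT-labelled libraries. Both were high in KO replicates 4 and 6 and WT replicate 2, and low in KO replicate 5, the library with the most Col1a1. KO replicates 4 and 6 and WT replicate 2 were also the libraries with the highest mitochondrial shares of counts, at 28.0%, 19.8% and 12.7%, against 9.08% in KO replicate 5, and the part of this in the values of both genes was not tested. Their log2 fold changes were 0.52 (SE 0.58, edgeR adjusted p = 0.767) for Col27a1 and 0.93 (SE 0.64, edgeR adjusted p = 0.676) for Col5a3. The WT-labelled libraries varied widely, with a coefficient of variation of 75.1% for Col27a1 and 80.5% for Col5a3. With 1 library left out, the log2 fold change of Col27a1 lay between 0.14 (without WT replicate 3) and 1.31 (without WT replicate 2). That of Col5a3 lay between 0.56 (without WT replicate 1) and 1.81 (without WT replicate 2). With sample quality weights in limma-voom both genes were called (adjusted p of 0.0141 for Col27a1 and 0.0124 for Col5a3). That setting called 15.1% of all genes as higher. Over the 17 alternatives their adjusted p ranged from these values to 1.00.

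The windows before the starts of Col27a1 (chr4:63215162-63215461, + strand, start 1408 bases inside the table's gene) and Col5a3 (chr9:20815018-20815317, − strand) are given for this second pattern, with the same letters in capitals.
Col27a1: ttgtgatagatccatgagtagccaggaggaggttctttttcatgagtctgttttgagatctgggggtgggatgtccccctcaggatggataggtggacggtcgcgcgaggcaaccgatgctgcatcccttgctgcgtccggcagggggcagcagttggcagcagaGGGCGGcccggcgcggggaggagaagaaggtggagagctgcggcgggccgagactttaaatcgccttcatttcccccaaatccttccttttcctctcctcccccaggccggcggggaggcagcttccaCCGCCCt
Col5a3: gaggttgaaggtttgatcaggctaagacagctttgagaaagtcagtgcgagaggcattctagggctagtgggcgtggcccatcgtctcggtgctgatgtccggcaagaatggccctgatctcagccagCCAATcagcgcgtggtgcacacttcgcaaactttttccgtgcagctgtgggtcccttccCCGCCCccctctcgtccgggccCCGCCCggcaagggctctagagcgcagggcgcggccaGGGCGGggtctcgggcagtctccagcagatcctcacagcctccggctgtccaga
GGGCGG was found 2 times in the Col27a1 window and 3 times in that of Col5a3. CCAAT was found 1 time in the Col5a3 window and 0 times in that of Col27a1.

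The remaining fibrillar genes were scarce. Col11a2, a chain of cartilage type XI, stood at 1.998, 1.02 and 3.61 CPM in the KO-labelled and 0.748, 2.56 and 1.17 CPM in the WT-labelled libraries, with overlapping groups. Its log2 fold change of 0.56 (SE 0.62, edgeR adjusted p = 0.767) turned to −0.01 without KO replicate 6, and was 0.25 without WT replicate 1 and 1.18 without WT replicate 2. Col24a1, Col11a1 and Col2a1, the chain of cartilage type II, had 28, 3 and 1 counts over all 6 libraries and were not tested.

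Type IV, the network of basement membranes, stood higher in every KO-labelled library through its common chains. Col4a1 and Col4a2 encode the chains found in nearly all basement membranes, and lie head to head on chromosome 8. Col4a1 (11198423 to 11312826) stood at 29.1, 47.9 and 29.8 CPM in the KO-labelled and 24.6, 14.6 and 17.8 CPM in the WT-labelled libraries. Col4a2 (11312805 to 11449287) stood at 26.0, 34.2 and 18.9 CPM in the KO-labelled and 14.8, 11.9 and 10.9 CPM in the WT-labelled libraries. For both genes the lowest KO-labelled library was above the highest WT-labelled one, and KO replicate 5 was the highest. The log2 fold changes were 0.91 (SE 0.29, edgeR adjusted p = 0.449) for Col4a1 and 1.07 (SE 0.27, edgeR adjusted p = 0.400) for Col4a2.

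Windows around the starts of Col4a1 and Col4a2 are shown because both genes stood higher in each KO-labelled library. The genes overlap by 22 bases in the count table, where reads cannot be told apart without strand, and the sources used here do not say whether strand was kept. The Col4a1 window is chr8:11312777-11313076 on the − strand and the Col4a2 window chr8:11312555-11312854 on the + strand. They overlap by 78 bases, and each is written 5′ to 3′ for its own gene, with the same letters in capitals.
Col4a1: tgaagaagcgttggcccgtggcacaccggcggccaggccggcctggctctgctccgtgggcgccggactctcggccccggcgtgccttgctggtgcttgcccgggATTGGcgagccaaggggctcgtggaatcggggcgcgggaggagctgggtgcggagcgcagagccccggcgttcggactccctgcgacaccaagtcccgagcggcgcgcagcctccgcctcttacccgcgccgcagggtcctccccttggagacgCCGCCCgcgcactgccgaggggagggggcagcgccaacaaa
Col4a2: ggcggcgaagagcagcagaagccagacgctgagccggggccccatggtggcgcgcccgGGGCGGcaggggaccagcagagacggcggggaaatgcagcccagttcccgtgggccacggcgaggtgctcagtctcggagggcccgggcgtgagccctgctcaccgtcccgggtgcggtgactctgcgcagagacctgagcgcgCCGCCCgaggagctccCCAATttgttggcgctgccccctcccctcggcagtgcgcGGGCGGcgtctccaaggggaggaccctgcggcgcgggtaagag
The Col4a1 window held 1 CCAAT and 1 GGGCGG match and the Col4a2 window 1 and 3, and neither held TATAAA. The GGGCGG match of the Col4a1 window lies in the shared bases and is the same site as 1 of the 3 in the Col4a2 window.

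Chains of type IV known from kidney and other special basement membranes were rare in these livers. Col4a5, on the X chromosome, stood at 2.63, 3.75 and 3.48 CPM in the KO-labelled and 0.748, 1.98 and 1.41 CPM in the WT-labelled libraries, without overlap (log2 fold change 1.25, SE 0.43, edgeR adjusted p = 0.504). Col4a3 stood at 0.908, 0.556 and 0.788 CPM in the KO-labelled and 0.561, 0.896 and 0.584 CPM in the WT-labelled libraries. Its groups overlapped, with a log2 fold change of 0.13 (SE 0.48, edgeR adjusted p = 0.938). Col4a6 and Col4a4 did not pass the filter, and 38 of the 53 counts of Col4a6 came from KO replicate 5.

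Type VI, the beaded microfibrils around cells, stood highest in KO replicates 4 and 5. Col6a1 and Col6a2 are neighbours on chromosome 10, and Col6a3 encodes the long chain that joins them. Col6a2 stood at 13.0, 22.1 and 4.99 CPM in the KO-labelled and 2.31, 6.02 and 4.38 CPM in the WT-labelled libraries. Col6a1 stood at 17.1, 21.3 and 10.05 CPM in the KO-labelled and 4.42, 11.8 and 7.15 CPM in the WT-labelled libraries. In these genes and in Col6a3, KO replicate 6 lay below WT replicate 2, so the groups overlapped. The log2 fold changes were 1.66 (SE 0.56, edgeR adjusted p = 0.480) for Col6a2, 1.05 (SE 0.41, edgeR adjusted p = 0.539) for Col6a1 and 0.89 (SE 0.46, edgeR adjusted p = 0.631) for Col6a3. Col6a2 had 1.07 without KO replicate 5, and Col6a3 had 0.54 without WT replicate 1 and 1.43 without WT replicate 2.

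The scarce type VI chains rest on few reads. Col6a5 had 27, 37 and 10 counts in the KO-labelled and 1, 13 and 1 counts in the WT-labelled libraries. Its log2 fold change of 2.37 (SE 0.99, edgeR adjusted p = 0.569) lay between 1.80 (without WT replicate 3) and 4.68 (without WT replicate 2) with 1 library left out. Col6a6 had 14, 40 and 13 counts in the KO-labelled and 9, 5 and 15 counts in the WT-labelled libraries, and its CPM did not overlap between the groups (log2 fold change 1.29, SE 0.52, edgeR adjusted p = 0.552). Col6a4 had 3 counts, all in KO replicate 5.

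Col18a1, the source of the fragment endostatin and the collagen with the highest mean FPKM in these livers, overlapped between the groups. The gene (chromosome 10, 77052178 to 77166548) stood at 553, 650 and 905 CPM in KO replicates 4, 5 and 6, and at 922, 568 and 681 CPM in WT replicates 1, 2 and 3. The means were 702 ± 182 CPM (KO-labelled) and 724 ± 181 CPM (WT-labelled; SD, n = 3 each). Its log2 fold change was −0.04 (SE 0.29, edgeR adjusted p = 0.965), and its sign changed with the scaling and with the library left out. Col18a1, Col4a3 and Col20a1 overlap other annotated genes, with which reads may be shared. Col15a1, the other collagen of this multiplexin group, stood at 7.90, 9.45 and 4.47 CPM in the KO-labelled and 3.68, 4.87 and 3.45 CPM in the WT-labelled libraries. Its groups overlapped between KO replicate 6 and WT replicate 2 (log2 fold change 0.87, SE 0.34, edgeR adjusted p = 0.541).

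Collagens that sit on the surface of fibrils (FACIT collagens) were mixed. Col14a1, with the highest mean FPKM of them, stood at 37.5, 58.2 and 30.7 CPM in the KO-labelled and 30.0, 22.6 and 33.7 CPM in the WT-labelled libraries, with overlapping groups (log2 fold change 0.55, SE 0.29, edgeR adjusted p = 0.632, and 0.24 without KO replicate 5). Col16a1 stood at 5.45, 6.16 and 3.55 CPM in the KO-labelled and 2.06, 2.88 and 1.70 CPM in the WT-labelled libraries, without overlap (log2 fold change 1.19, SE 0.36, edgeR adjusted p = 0.431). Col12a1 had a log2 fold change of 0.76 (SE 0.50, edgeR adjusted p = 0.667) with overlapping groups, and of 0.36 without WT replicate 3 and 1.23 without WT replicate 2. Col20a1 was the other collagen fitted lower, at 2.72, 0.880 and 2.04 CPM in the KO-labelled and 1.25, 4.29 and 2.04 CPM in the WT-labelled libraries. Its log2 fold change of −0.45 (SE 0.59, edgeR adjusted p = 0.807) rested on WT replicate 2, without which it was 0.15.

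Transmembrane collagens, which sit in the cell surface, and type VII, the anchoring fibril of skin, were scarce. Col13a1 stood at 4.09, 3.15 and 4.01 CPM in the KO-labelled and 2.62, 2.69 and 1.31 CPM in the WT-labelled libraries, without overlap (log2 fold change 0.77, SE 0.38, edgeR adjusted p = 0.623, and 0.47 without WT replicate 3). Col23a1 had 12, 18 and 11 counts in the KO-labelled and 8, 7 and 8 counts in the WT-labelled libraries (log2 fold change 0.97, SE 0.46, edgeR adjusted p = 0.619). Col7a1 had 18, 11 and 15 counts in the KO-labelled and 2, 14 and 7 counts in the WT-labelled libraries (log2 fold change 1.16, SE 0.76, edgeR adjusted p = 0.667). Its log2 fold change was 0.71 without KO replicate 4, 0.73 without WT replicate 1 and 2.05 without WT replicate 2. Col25a1, known from neurons and amyloid plaques, had more counts in each WT-labelled library but did not pass the filter. It had 2, 4 and 7 counts in the KO-labelled and 9, 15 and 52 counts in the WT-labelled libraries. Without the filter its log2 fold change was −2.30 (SE 0.75, edgeR adjusted p = 0.316).

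The 18 members that did not pass the filter were Col25a1, Col4a6, Col8a1, Col4a4, Col9a3, Col24a1, Col8a2, Col28a1, Col17a1, Col9a2, Col22a1, Col11a1, Col10a1, Col6a4, Col9a1, Col26a1, Col2a1 and Col19a1. They had at most 89 counts over the 6 libraries, and Col19a1 had 0. In a fit of all genes without a filter, 10 of the 17 with any count were fitted higher and 7 lower. All 24643 genes in that fit split into 12113 higher and 12530 lower. Many of these members, such as Col17a1 and Col2a1, had 5 or fewer counts in total, so their signs say little. Col8a2 (log2 fold change 2.91, SE 1.14, edgeR adjusted p = 0.484) and Col4a4 (1.07, SE 0.82, edgeR adjusted p = 0.731) had all KO-labelled CPM above the WT-labelled ones, and Col25a1 had them below.

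**Figure D2:**
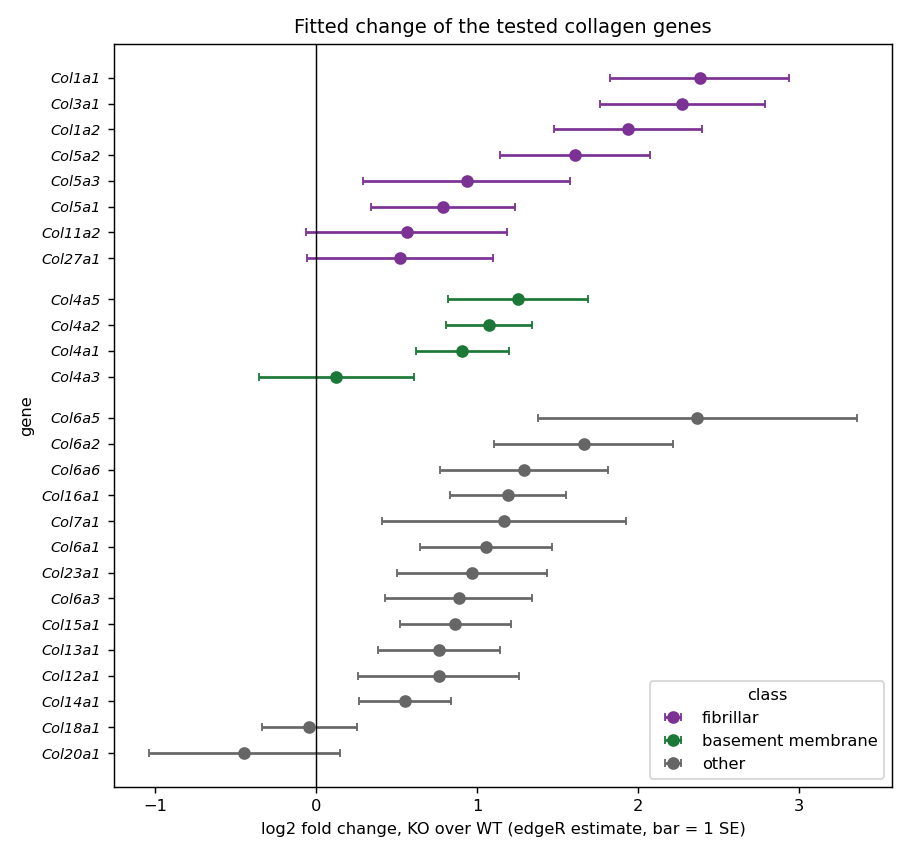
Log2 fold change (KO-labelled over WT-labelled, edgeR estimate on the x axis) of the 26 tested collagens with 1 SE as the bar, grouped by class on the y axis. All 8 fibrillar and all 4 basement membrane genes lie right of 0, and 2 of the 14 other collagens, Col18a1 and Col20a1, lie left of it.

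By class, the fibrillar genes had the highest median fold, but not under each setting. The 8 tested fibrillar genes, of 11, were all fitted higher, with a median log2 fold change of 1.27 (0.52 to 2.38), and in 4 all KO-labelled values lay above the WT-labelled ones, as in 8.12% of all genes. The 4 tested basement membrane genes, of 6, had a median of 0.99 (0.13 to 1.25), with 3 not overlapping. The 14 tested other collagens, of 27, had a median of 0.93 (−0.45 to 2.37), with 12 fitted higher and 4 not overlapping. The fibrillar median was the highest of these in 13 of 17 alternatives, and the basement membrane median in 4. These 4 were the fits without a count filter, without WT replicate 1, without KO replicate 4, and without both of these libraries. The order of the classes thus changed with single libraries, and no test of the difference between classes was made.

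Summed levels of a class were set by a few abundant genes. All 11 fibrillar genes summed to 618, 395 and 486 CPM in KO replicates 4, 5 and 6 and to 136, 408 and 142 CPM in WT replicates 1, 2 and 3, and overlapped through WT replicate 2. Without Col27a1 and Col5a3, a split made after their values were seen, the other 9 summed to 269, 271 and 100.2 CPM in the KO-labelled and 30.5, 78.1 and 50.04 CPM in the WT-labelled libraries. That is 4.04 times as much in the mean of the KO-labelled libraries, against 2.19 times for all 11. The 6 basement membrane genes summed to 59.7, 88.8 and 53.6 CPM in the KO-labelled and 40.8, 30.2 and 31.3 CPM in the WT-labelled libraries, 1.98 times as much and without overlap. The 27 other collagens summed to 668, 803 and 984 CPM in the KO-labelled and 977, 644 and 748 CPM in the WT-labelled libraries, a sum that is mostly Col18a1. Without Col18a1 it was 115, 153 and 79.2 CPM in the KO-labelled and 54.3, 76.8 and 67.4 CPM in the WT-labelled libraries, 1.75 times as much, with KO replicate 6 just above WT replicate 2.

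**Figure D3:**
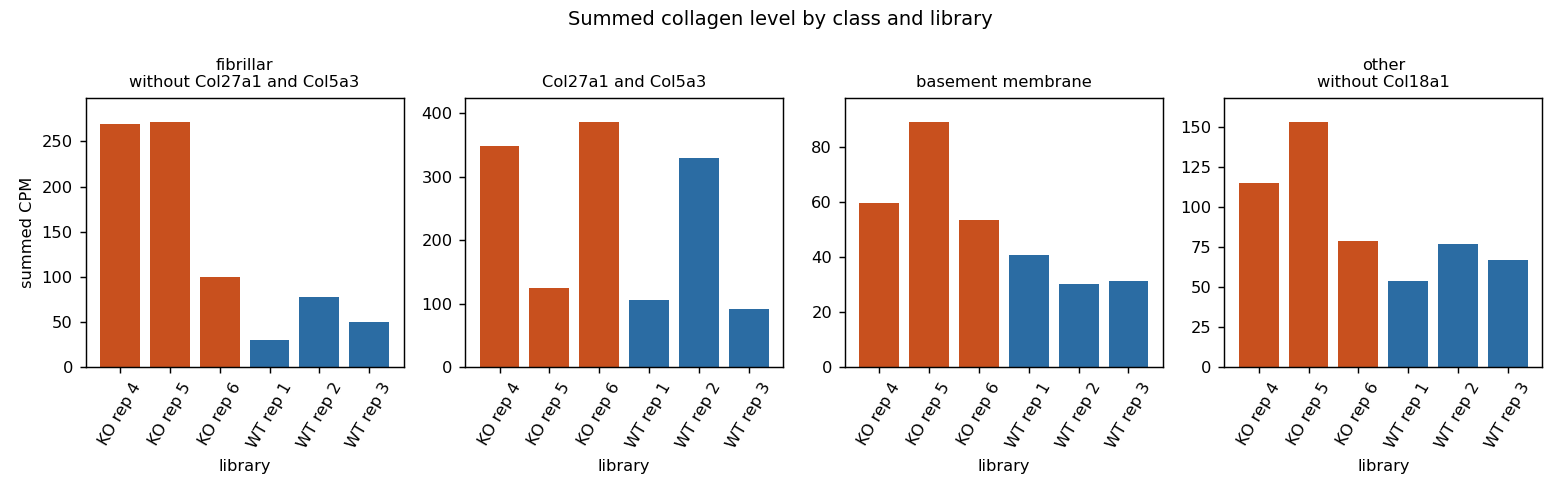
Summed CPM (y axis) in each library (x axis; KO-labelled in orange, WT-labelled in blue) of the fibrillar genes without Col27a1 and Col5a3, of those 2 genes, of the basement membrane genes and of the other collagens without Col18a1. The KO-labelled bars exceed every WT-labelled bar in all panels but that of Col27a1 and Col5a3, where WT replicate 2 stands with KO replicates 4 and 6.

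As a share of summed FPKM (fragments scaled for gene length and library size), Col18a1 made up 46.0%, 54.5% and 64.0% in the KO-labelled and 82.9%, 57.9% and 76.4% in the WT-labelled libraries. Types I and III together made up 14.8%, 15.9% and 4.27% in the KO-labelled and 1.63%, 4.57% and 3.18% in the WT-labelled libraries. For these fibres KO replicate 6 lay within the WT-labelled range and the other KO-labelled libraries were well above it. Type IV made up 4.92%, 7.35% and 3.72% in the KO-labelled and 3.605%, 3.03% and 3.43% in the WT-labelled libraries, without overlap. Col27a1 and Col5a3 made up 22.6%, 7.79% and 21.3% in the KO-labelled and 6.41%, 25.0% and 8.23% in the WT-labelled libraries.

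**Figure D4:**
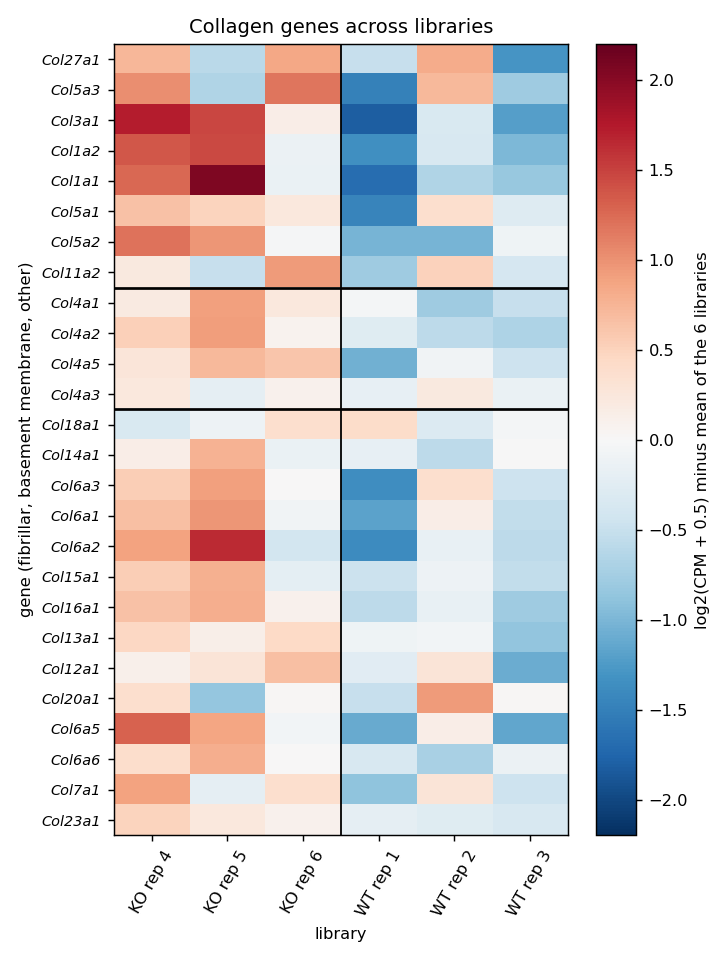
Level of each tested collagen in each library (columns; KO-labelled left, WT-labelled right) as log2(CPM + 0.5) minus the gene's mean over the 6 libraries, red for above and blue for below, with lines between fibrillar, basement membrane and other genes. KO replicates 4 and 5 are red for most rows, while Col27a1, Col5a3 and Col11a2 are blue in KO replicate 5 and red in WT replicate 2.

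Most of the tested collagens were highest in KO replicate 4 or 5. KO replicate 5 was the highest of all libraries in 12 of the 26 tested collagens, KO replicate 4 in 8 and KO replicate 6 in 4, against 1 each for WT replicates 1 and 2 and 0 for WT replicate 3. WT replicate 1 was the lowest in 11. Within the KO-labelled group, KO replicate 6 was the lowest in 15 of 26.

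Ratios between chains, 5 within a collagen type and 1 of type III to type I, overlapped between the groups in each of the 6 computed. Per kilobase of gene length, the ratio of Col1a1 to Col1a2 counts was 1.08, 1.75 and 1.13 in the KO-labelled and 0.874, 0.917 and 1.28 in the WT-labelled libraries. For Col3a1 to Col1a1 it was 2.80, 1.36 and 2.53 in the KO-labelled and 1.99, 2.62 and 1.60 in the WT-labelled libraries. For Col4a1 to Col4a2 it was 0.992, 1.24 and 1.40 in the KO-labelled and 1.48, 1.09 and 1.44 in the WT-labelled libraries. Col6a1 to Col6a2 stood at 2.499, 1.83 and 3.83 in the KO-labelled and 3.65, 3.72 and 3.10 in the WT-labelled libraries, and Col6a3 to Col6a1 at 0.345, 0.357 and 0.400 and at 0.325, 0.440 and 0.401. Col5a1 to Col5a2 was the widest, at 1.503, 1.59 and 2.81 in the KO-labelled and 1.73, 7.03 and 2.01 in the WT-labelled libraries, the last through WT replicate 2.

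The other genes of the collagen pathway are described from lists chosen with earlier results of these data known, and 0 of their members passed over all genes in edgeR. Genes that fold and modify collagen chains had 14 of 19 tested members fitted higher (median log2 fold change 0.28), 2 of them higher at an unadjusted p under 0.05 (10.5% of the list, against 5.37% of all genes). Serpinh1, the collagen chaperone HSP47, stood at 53.9, 51.8 and 34.2 CPM in the KO-labelled and 15.8, 25.4 and 23.1 CPM in the WT-labelled libraries, without overlap (log2 fold change 1.12, SE 0.27, edgeR adjusted p = 0.391). Fkbp10, a prolyl isomerase of collagen folding, had a log2 fold change of 1.27 (SE 0.46, edgeR adjusted p = 0.520). Genes that process procollagen and assemble fibrils had 16 of 18 tested members fitted higher (median 0.91), 6 higher at an unadjusted p under 0.05 (33.3%, against 5.37% of all genes). Loxl2, a cross-linking lysyl oxidase, stood at 5.54, 4.96 and 2.63 CPM in the KO-labelled and 1.37, 1.34 and 1.46 CPM in the WT-labelled libraries (log2 fold change 1.64, SE 0.38, edgeR adjusted p = 0.383). Adamts2, which cuts the front end off fibrillar procollagens, stood at 14.4, 19.5 and 7.36 CPM in the KO-labelled and 4.24, 6.02 and 4.57 CPM in the WT-labelled libraries (log2 fold change 1.48, SE 0.37, edgeR adjusted p = 0.400).

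The list of collagen receptors had 7 of 9 tested members fitted higher (median 0.64), 3 higher at an unadjusted p under 0.05 (33.3%, against 5.37% of all genes). Those 3 were Ddr2, Cd93 and Cd44, of which Cd93 and Cd44 are better known for ligands other than collagen. The tested integrin chains Itga1, Itga10 and Itgb1 had log2 fold changes of 0.21, −0.27 and −0.26 (edgeR adjusted p of 0.733, 0.876 and 0.783). Ddr2, the receptor kinase for fibrillar collagens, had a log2 fold change of 0.95 (SE 0.34, edgeR adjusted p = 0.516), and Cd93, an endothelial receptor, of 0.81 (SE 0.28, edgeR adjusted p = 0.506). The list of collagen breakdown, which also holds inhibitors of the matrix proteases, had 5 of 5 tested members, of 13, fitted higher (median 0.73). Of these, 2 were higher at an unadjusted p under 0.05 (against 5.37% of all genes). The inhibitors among the 5 were Timp2 (log2 fold change 0.73, SE 0.48, edgeR adjusted p = 0.668) and Timp3 (0.17, SE 1.05, edgeR adjusted p = 0.961). Mmp2, a gelatinase, stood at 3.36, 7.27 and 1.44 CPM in the KO-labelled and 1.31, 1.54 and 1.22 CPM in the WT-labelled libraries, with overlap through KO replicate 6 (log2 fold change 1.58, SE 0.58, edgeR adjusted p = 0.520). Mmp14, which activates it at the cell surface, had a log2 fold change of 1.20 (SE 0.48, edgeR adjusted p = 0.549).

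Other basement membrane components had 16 of 18 tested members fitted higher (median 0.63), 5 higher at an unadjusted p under 0.05 (27.8%, against 5.37% of all genes). Lamb3, a laminin chain, stood at 31.9, 22.5 and 44.0 CPM in the KO-labelled and 5.98, 12.7 and 7.15 CPM in the WT-labelled libraries, without overlap (log2 fold change 1.93, SE 0.37, edgeR adjusted p = 0.319). Lama3, another laminin chain, was lower without overlap, at 6.90, 5.42 and 9.46 CPM in the KO-labelled and 13.5, 9.73 and 10.2 CPM in the WT-labelled libraries. Its log2 fold change was −0.62 (SE 0.28, edgeR adjusted p = 0.605). Npnt, nephronectin, had 0 counts in WT replicate 1 and a log2 fold change of 3.03 (SE 0.95, edgeR adjusted p = 0.437). The list of profibrotic signals, which also holds Skil and Smad7, repressors of Tgfb signalling, was split. Of 14 tested members, 8 were fitted higher (median 0.08). At an unadjusted p under 0.05, 3 were higher and 1 lower (against 5.37% and 3.21% of all genes). The 1 lower was Skil (log2 fold change −0.75, SE 0.31, edgeR adjusted p = 0.557), and Smad7 was fitted at −0.19 (SE 0.43, edgeR adjusted p = 0.894). Tgfb1 stood at 12.5, 10.8 and 10.1 CPM in the KO-labelled and 6.11, 7.04 and 8.12 CPM in the WT-labelled libraries (log2 fold change 0.65, SE 0.22, edgeR adjusted p = 0.502). Ltbp1, which stores its product in the matrix, had a log2 fold change of 1.55 (SE 0.48, edgeR adjusted p = 0.437).

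Markers of the cells that make collagen differed in how they stood between the groups, and their part in the collagen values was not tested. Hepatic stellate cell markers had 7 of 14 members fitted higher (median 0.01), with summed levels of 331 to 365 CPM in the KO-labelled and 273 to 326 CPM in the WT-labelled libraries, without overlap. Ecm1 took the largest part of these sums, with means of 184 CPM (KO-labelled) and 148 CPM (WT-labelled). The vitamin A enzyme Lrat, a defining marker, stood at 8.45, 10.5 and 8.87 CPM in the KO-labelled and 8.72, 9.41 and 10.4 CPM in the WT-labelled libraries. Des, desmin, stood at 28.4, 25.0 and 7.88 CPM in the KO-labelled and 3.74, 6.79 and 5.69 CPM in the WT-labelled libraries (log2 fold change 1.91, SE 0.48, edgeR adjusted p = 0.400), and Nes, nestin, had a log2 fold change of 1.16 (SE 0.31, edgeR adjusted p = 0.400).

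Myofibroblast markers had 8 of 8 tested members, of 10, fitted higher (median 1.80). Their summed levels were 307, 312 and 159 CPM in KO replicates 4, 5 and 6, and 91.4, 151 and 87.3 CPM in WT replicates 1, 2 and 3, and KO replicate 6 was the lowest of the KO-labelled libraries, as for types I and III. Spp1 took the largest part of the WT-labelled sums, with means of 59.9 CPM (KO-labelled) and 51.9 CPM (WT-labelled). Its log2 fold change was 0.21 (SE 0.29, edgeR adjusted p = 0.815). Vim had a log2 fold change of 1.66 (SE 0.35, edgeR adjusted p = 0.365) and S100a6 of 1.78 (SE 0.45, edgeR adjusted p = 0.400). The contractile genes of this list, named after their values were seen, did not share one pattern. Acta2 stood at 64.3, 69.3 and 6.24 CPM in the KO-labelled and 2.56, 14.3 and 9.87 CPM in the WT-labelled libraries, and Actg2 at 15.2, 13.6 and 0.328 CPM and at 0.374, 1.09 and 0.584 CPM. For both, and for Cnn1 and Myl9, KO replicate 6 lay within or below the WT-labelled range. Tpm2 instead stood at 46.5, 44.3 and 37.2 CPM in the KO-labelled and 15.0, 30.0 and 13.4 CPM in the WT-labelled libraries, without overlap. Tagln, which did not pass the filter, stood at 1.63, 0.324 and 0.525 CPM in the KO-labelled and 0.125, 0.384 and 0.243 CPM in the WT-labelled libraries, with KO replicate 5 the lowest of the KO-labelled ones. Cthrc1 was at 0 counts in each library but KO replicate 5.

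Portal fibroblast markers had 9 of 9 tested members, of 10, fitted higher (median 1.99), with summed levels of 69.1, 117 and 28.2 CPM in the KO-labelled and 13.0, 27.0 and 22.2 CPM in the WT-labelled libraries. Mfap4 had a log2 fold change of 2.22 (SE 0.48, edgeR adjusted p = 0.365) and Fbln2 of 1.99 (SE 0.45, edgeR adjusted p = 0.370). Liver endothelial markers had 12 of 12 members fitted higher (median 0.68). Their summed levels were 476, 327 and 431 CPM in KO replicates 4, 5 and 6, and 195, 263 and 237 CPM in WT replicates 1, 2 and 3. KO replicate 5 was thus the lowest of the KO-labelled libraries here, while it was the highest for Col4a1 and Col4a2. Vwf had a log2 fold change of 1.28 (SE 0.33, edgeR adjusted p = 0.400) and Eng of 1.04 (SE 0.30, edgeR adjusted p = 0.407).

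**Figure D5:**
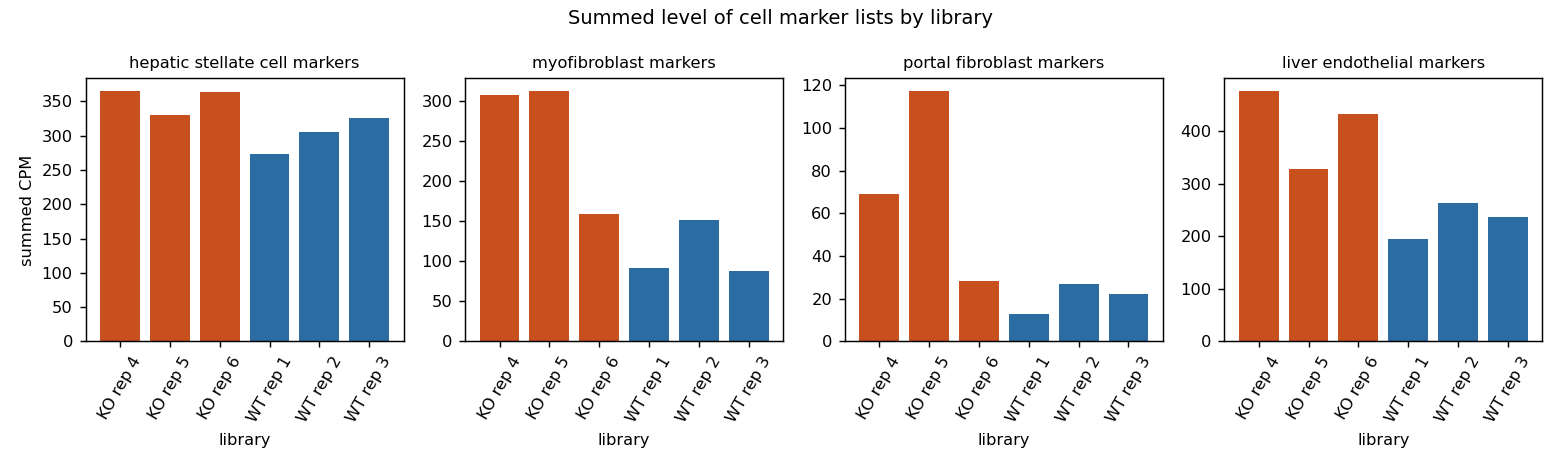
Summed CPM (y axis) of marker lists for hepatic stellate cells, myofibroblasts, portal fibroblasts and liver endothelium in each library (x axis; KO-labelled in orange, WT-labelled in blue). Myofibroblast and portal fibroblast sums are high in KO replicates 4 and 5 and near the highest WT-labelled library in KO replicate 6. Stellate cell sums differ less between the groups, without overlap.

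Macrophage markers had 10 of 10 members fitted higher (median 0.69; summed 151 to 205 CPM in the KO-labelled and 84.4 to 115 CPM in the WT-labelled libraries), among them Csf1r (log2 fold change 0.88, SE 0.22, edgeR adjusted p = 0.391) and Vsig4 (0.82, SE 0.26, edgeR adjusted p = 0.449). Clec4f took the largest part of these sums, with means of 100.5 CPM (KO-labelled) and 52.4 CPM (WT-labelled), and its groups overlapped. Cholangiocyte markers had 5 of 7 tested members, of 8, fitted higher (median 0.23; summed 23.2 to 30.3 CPM in the KO-labelled and 18.4 to 29.8 CPM in the WT-labelled libraries). There Krt19 had a log2 fold change of 0.69 (SE 0.47, edgeR adjusted p = 0.673) and Sox9 of −0.66 (SE 0.48, edgeR adjusted p = 0.685), and Cftr was at 0 in at least 1 library. Mesothelial markers were near 0, with sums of 4.996 to 6.62 CPM in the KO-labelled and 1.31 to 4.55 CPM in the WT-labelled libraries. Of these, 3 of 7 were tested, among them Msln (log2 fold change 2.26, SE 0.78, edgeR adjusted p = 0.499) and Upk3b (0.65, SE 0.82, edgeR adjusted p = 0.796), and Lrrn4 and Krt14 were at 0 in at least 1 library. Hepatocyte markers had 10 of 11 members fitted lower (median −0.50), with Cps1 at −1.70 (SE 0.60, edgeR adjusted p = 0.513) and Arg1 at −0.73 (SE 0.31, edgeR adjusted p = 0.575), and their sums overlapped, at 83236 to 91913 CPM in the KO-labelled and 85080 to 129418 CPM in the WT-labelled libraries.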

How the data were processed

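Bulk RNA of 6 liver libraries was counted per gene. Frozen tissue was extracted with Trizol and prepared with an Illumina TruSeq RNA kit, per the labels' protocols. DESeq2 1.16.1, HISAT2 2.0.5, the mm10 build and featureCounts 1.5.0-p3 are listed, without roles or settings, in the submitters' processing notes. The authors' deposited table holds raw counts. The FPKM values deposited by the authors were used for shares per length and as an alternative. Counts of all genes entered 1 quasi-likelihood fit (edgeR 4.0.16, R 4.3.3) after filterByExpr, scaled by TMM and adjusted by Benjamini-Hochberg, with 0.05 as the threshold. CPM are scaled by TMM. Each SE is the size of the log2 fold change divided by the root of its F statistic. Alternatives used DESeq2 1.42.0, limma 3.58.1, other scalings, log2 FPKM plus 1 or 0.1 (mean FPKM of at least 0.1), and left-out libraries; sums without single abundant genes, and the fit without both WT replicate 1 and KO replicate 4, were chosen after seeing the data. The sources used here do not give the strand setting. Of each pathway list, called members or otherwise the 2 with the smallest p are named; all tested collagens are named. Fits were run on simulated counts with the same spread for every gene. That setting lacks the differences between libraries seen here, so it does not show how the fits perform on these data. Chi-square per degree of freedom was at least 42.3 for each pair of libraries, so none repeated another. Members, classes and lists were chosen with earlier results of these data known. Promoter sequences are from RefSeq (GRCm38.p6). A planned comparison of protein sequences was not analysed here.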

Additional observations from a re-analysis of the deposited data

How the results depend on the processing

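Of 438 refitted collagen values under 17 alternatives, 408 kept their direction and their side of the threshold, 20 newly passed and 10 changed sign. The count of collagens called, 0 in edgeR, was 3 with DESeq2, 3 with no filter on low counts and 14 with limma-voom and sample quality weights, and 0 under each of the other alternatives. The count of all genes called, 2 in edgeR, was 1 with library size alone, 61 with no filter, 176 with DESeq2, 1 with limma-voom, 4063 with sample quality weights, 1 with FPKM plus 1 and 4 with FPKM plus 0.1. With 1 library left out it lay between 0 and 1, and without both WT replicate 1 and KO replicate 4, chosen after seeing the data, it was 0. The values that changed sign belong to 4 genes whose SE exceeded their log2 fold change. Col18a1 was 0.0159 with upper quartile scaling, 0.18 with sample quality weights, 0.17 without WT replicate 1, 0.10 without KO replicate 4, 0.01 without KO replicate 5 and 0.32 without both WT replicate 1 and KO replicate 4. With 1 library left out, Col18a1 lay between −0.27 and 0.17, Col20a1 between −0.80 and 0.15 (without WT replicate 2), Col4a3 between −0.023 (without KO replicate 4) and 0.36, and Col11a2 between −0.0063 (without KO replicate 6) and 1.18. Without both libraries Col4a3 was −0.14. With FPKM plus 1, whose constant pulls low genes towards 0, the median log2 fold change was 0.73 for the fibrillar, 0.66 for the basement membrane and 0.23 for the other collagens. With no filter, which adds scarce genes, the fibrillar median was 0.77, and without both WT replicate 1 and KO replicate 4 it was also 0.77.

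The log2 ratio of summed CPM was 1.13 for the fibrillar class, and 2.01 without Col27a1 and Col5a3. With 1 library left out, the ratio of the whole fibrillar class lay between 0.86 and 1.85, the highest without WT replicate 2. With types XV and XVIII counted as basement membrane, that class had 0.029, against 0.98, and the other class 0.80, against 0.05, because Col18a1 outweighs the rest, and without Col18a1 the other class had 0.81. The log2 ratio of the Col5a1 to Col5a2 chain ratio, KO-labelled over WT-labelled, was −0.87, and between −1.21 and 0.071 with 1 library left out, the highest without WT replicate 2. The causes of these moves were not tested further. No paired analysis was possible because the labels give the groups no shared replicate numbers. With 3 libraries a group and a biological coefficient of variation of 34.7%, members under about 1 CPM rest on few reads, which limits what differences in them this depth can show.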
